A study of Mus musculus with 12 samples.

Results

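Opposite-strand transcripts are RNAs read from the strand that faces a named gene, and their symbols are the symbol of that gene followed by os, with or without a digit. They were studied in 4 groups of dorsal cortex from mouse embryos (strain C57BL/6): Ash2l cKO at E14.5, WT at E14.5, Ash2l cKO at E16.5 and WT at E16.5, with 3 libraries in each. In the cKO embryos a D6-driven Cre, active in the dorsal telencephalon, deletes Ash2l, a shared subunit of the COMPASS complexes that methylate histone H3 at lysine 4. Cells that the Cre does not reach keep the gene. The labels do not say whether WT embryos carried Cre or floxed alleles. Members were taken by symbol: the symbol ends in os, or os and digits, and the symbol without that ending is also in the deposited tables. With Dlx6os1 left out, 169 of 27179 genes met this rule, and they face 164 distinct sense partners, 5 of which have more than 1 member. In the exon coordinates of the count tables all 169 lay on the strand opposite to their partner, as the name says.

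Many mammalian promoters start RNA in both directions, and the strand that faces a gene often gives a long noncoding RNA at a low level. Such pairs can share 1 start region, with the starts back to back or overlapping, or the second RNA can begin deep inside the partner. Histone H3 lysine 4 methylation is laid down around active starts, and CG-rich start regions carry much of it. Some of these RNAs have known partners in the forebrain, such as Emx2os beside Emx2, a homeobox gene of cortical patterning, and Six3os1 beside Six3, a homeobox gene of the anterior forebrain. A name ending in os says where the gene lies and not that it is noncoding: RefSeq lists 134 of the 169 as lncRNA, 4 as antisense RNA, 10 as protein coding and 2 as transcribed pseudogenes, and 19 were not in the table used here. RefSeq now lists Chd3os under the symbol Rnf227, Ppp1r3fos under Flicr and Toporsos under Smim27.

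The start regions of the pairs that the results turn on are shown first, since they set apart RNAs that begin away from the start of their partner and RNAs that share a start region with it. Each window holds 250 bases before and 50 bases after an annotated RefSeq start (GRCm38.p6, the assembly of mm10), written 5′ to 3′ on the strand of the named gene, with every CG in capitals. Kank4os (chr4:98793518-98793817, plus strand) begins inside Kank4, 23769 bases from its start. The window of Kank4 itself (chr4:98817488-98817787, minus strand) holds 38 CG and that of Kank4os 5. Pcsk2os1 (chr2:143547788-143548087, minus strand) begins 1704 bases inside Pcsk2, with 17 CG. The window of Map2k3 (chr11:60931804-60932103, plus strand) holds 28 CG and also covers the start of Map2k3os, which lies at base 64 of it and runs the other way.
Kank4os: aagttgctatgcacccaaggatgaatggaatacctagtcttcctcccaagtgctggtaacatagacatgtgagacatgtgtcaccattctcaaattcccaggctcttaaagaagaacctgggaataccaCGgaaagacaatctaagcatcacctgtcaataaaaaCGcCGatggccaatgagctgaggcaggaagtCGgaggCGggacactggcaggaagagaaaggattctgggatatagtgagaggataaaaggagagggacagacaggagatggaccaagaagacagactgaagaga
Kank4: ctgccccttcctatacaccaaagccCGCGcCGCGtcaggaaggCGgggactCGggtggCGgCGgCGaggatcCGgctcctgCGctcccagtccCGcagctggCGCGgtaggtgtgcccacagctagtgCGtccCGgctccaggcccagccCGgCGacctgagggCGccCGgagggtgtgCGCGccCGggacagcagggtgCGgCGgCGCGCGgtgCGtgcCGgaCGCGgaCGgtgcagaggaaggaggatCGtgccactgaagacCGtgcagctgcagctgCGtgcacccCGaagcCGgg
Pcsk2os1: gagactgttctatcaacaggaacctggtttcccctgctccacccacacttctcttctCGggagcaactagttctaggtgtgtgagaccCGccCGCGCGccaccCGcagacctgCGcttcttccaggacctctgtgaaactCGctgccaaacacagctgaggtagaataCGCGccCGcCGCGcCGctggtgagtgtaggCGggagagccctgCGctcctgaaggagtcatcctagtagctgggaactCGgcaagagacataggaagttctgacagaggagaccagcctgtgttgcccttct
Map2k3: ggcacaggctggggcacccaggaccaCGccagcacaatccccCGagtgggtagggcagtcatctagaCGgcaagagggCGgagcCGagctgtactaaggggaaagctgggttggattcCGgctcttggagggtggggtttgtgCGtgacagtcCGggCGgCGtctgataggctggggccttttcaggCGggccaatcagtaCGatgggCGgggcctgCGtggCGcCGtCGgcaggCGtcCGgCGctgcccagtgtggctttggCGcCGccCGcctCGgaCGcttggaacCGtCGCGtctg
The motif searched was CG, which reads the same on both strands. Of the 56 members that were tested for expression, 38 had a RefSeq window whose start lay within 100 bases of the start in the count tables, and so had 41 of their partners. Windows of the opposite-strand transcripts had a median of 23.5 CG (from 5 to 54), windows of the partners a median of 22, and all 32851 windows of the table a median of 7. Among the 38 opposite-strand windows 33 held 10 CG or more, against 43.5% of all windows. The 38 belong to members over the level filter, while the windows of the table were not chosen by level. The 5 with fewer belonged to Kank4os, Dnm3os, Mccc1os, Wdr83os and Zfp85os. Windows of many pairs overlap in part, so the medians of both sides share bases. For Kirrel3os the RefSeq starts lay far from the counted exons, so no window is shown.

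Most members were at or near the limit of detection. A total of 46 had no count in any of the 12 libraries, 42 had between 1 and 10 counts over all of them, and 25 had more without reaching the level filter. The filter asked for a mean of 0.5 CPM, the count of a gene scaled to a common library total, in at least 1 of the 4 groups. It left 56 members and 113 outside, and 132 of the 164 partners passed it. The members just inside had highest group means of 0.545 (Smc2os), 0.552 (Dhrs13os) and 0.589 CPM (Spag17os), and those just outside 0.471 (Tmem150cos), 0.434 (Tmem74bos) and 0.426 CPM (Fmr1os). Arrangement can be set beside level. Of 40 head to head members 21 passed, and of 41 with overlapping heads 19, against 6 of 57 that lie inside their partner. The other arrangements passed in 3 of 17 cases with overlapping tails, 2 of 5 with the partner inside the opposite-strand gene and 5 of 9 tail to tail.

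**Figure D1:**
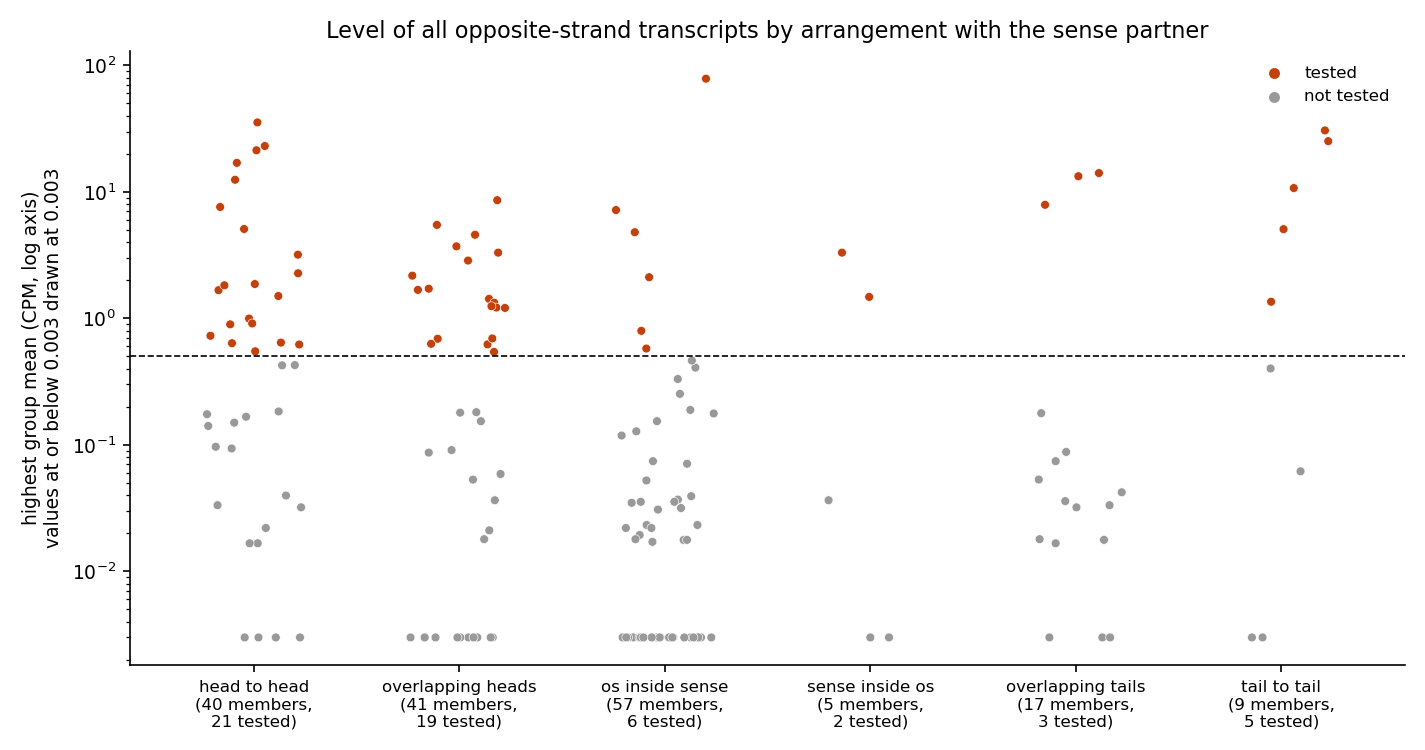
Highest of the 4 group means of every opposite-strand transcript (CPM, log axis) by arrangement with its sense partner, with 1 point per member and the dashed line at 0.5 CPM. Members lying inside their partner sit mostly below the line (6 of 57 tested), while about as many head to head members lie above it as below (21 of 40 tested).

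Strand was used in counting, so a strongly expressed partner could leak counts only if strand were misread. Peg3, an imprinted zinc finger gene, had 39148 counts, of which 5112 would fall on the exon bases it shares with Peg3os by length, and Peg3os had 0. For Bach2os the count was 0.122% of the amount so expected from Bach2, and for Grin1os 0.241% of that from Grin1. These values are low enough that counts on the facing strand of these 3 loci were close to absent. They are the lowest among pairs sharing 100 exon bases or more with 1000 or more partner counts so expected. In the same set Frmd8os was at 1.18% and the others from 18.4% (Zbtb11os1) to 759% (Zfhx2os). The part of misread partner counts in these was not tested. Over the tested members the median level was 1.40 CPM, against 49.0 CPM for their partners and 22.1 CPM for all 15542 genes tested. Compared per kilobase of exon, as the geometric mean of the ratio over 12 libraries, the opposite-strand transcript was at a median of 15.6% of its partner. The ratio was below 1% in 2 pairs, between 1% and 10% in 21, between 10% and 100% in 24, and above the partner in 9. Among the 9 were Zfhx2os, at 542% of the homeobox gene Zfhx2, and Wdr83os, a coding gene for a small membrane protein of the endoplasmic reticulum, at 185% of Wdr83.

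**Figure D2:**
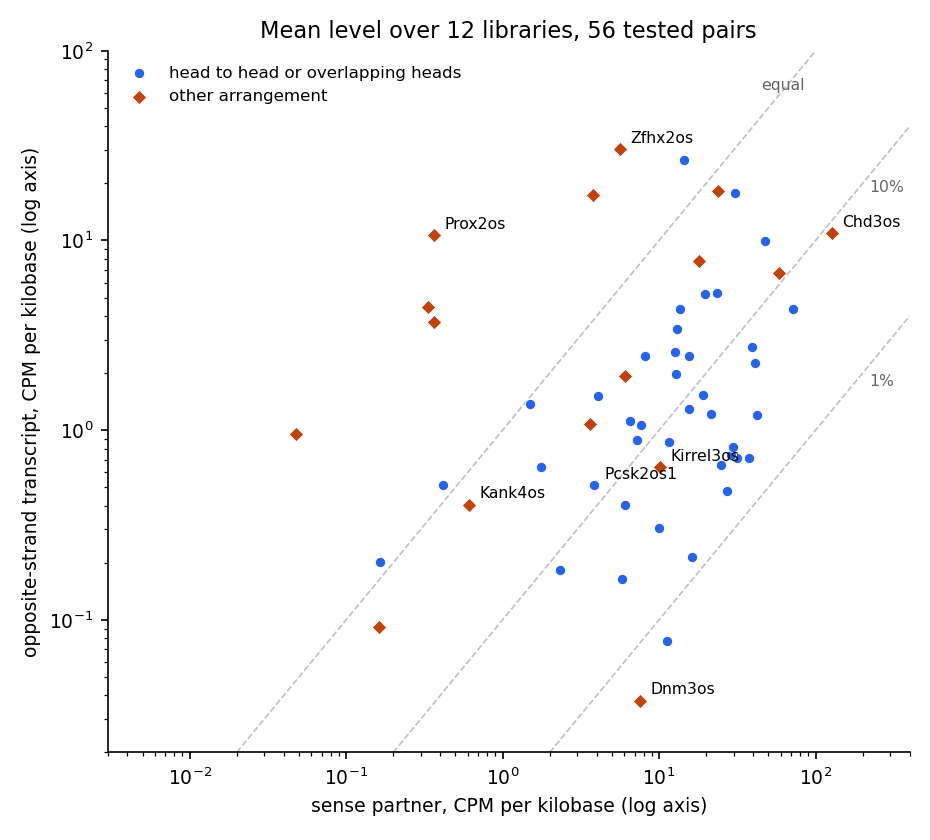
Mean level over 12 libraries of each of the 56 tested opposite-strand transcripts against its sense partner (CPM per kilobase of exon, log axes), with 1 point per pair and dashed lines where both are equal and where the opposite-strand transcript is at 10% and 1% of the partner. Most points lie below the line of equality, and 9 pairs lie above it.

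The 5 members at the highest level whose pair held no call are given by their ranges. Zfhx2os ran from 64.7 to 81.1 CPM in E14.5 cKO and from 62.7 to 91.5 CPM in E14.5 WT libraries, and from 70.9 to 82.4 CPM in E16.5 cKO and from 60.3 to 81.1 CPM in E16.5 WT libraries. Slc7a6os, a coding gene beside the amino acid transporter gene Slc7a6, ran from 29.0 to 31.9 CPM in E14.5 cKO and from 25.5 to 25.7 CPM in E14.5 WT libraries. Its groups did not overlap at E16.5 either, at 27.0 to 32.2 CPM in cKO and 23.0 to 26.8 CPM in WT libraries, a log2 fold change of 0.22 (SE 0.10, edgeR adjusted p = 0.184). Emx2os ran from 15.3 to 28.9 CPM in E16.5 cKO and from 17 to 23.8 CPM in E16.5 WT libraries, and its partner Emx2 from 41.6 to 69.6 CPM in cKO and from 40.4 to 55.0 CPM in WT libraries. Without E16.5 cKO A Emx2 was called higher (log2 fold change 0.46, adjusted p = 0.0472). In both genotypes at E16.5 the library with the least Emx2os was also the one with the least Emx2. At E14.5 Emx2os ran from 30.2 to 42.5 CPM in cKO and from 17.1 to 30.4 CPM in WT libraries. Tmem147os, whose start lies 45 bases from that of Tmem147, had log2 fold changes of -0.01 at E14.5 and -0.02 at E16.5 (SE 0.11 at each). Wdr83os had 0.31 (SE 0.11, adjusted p = 0.171) at E14.5 and 0.13 (SE 0.11, adjusted p = 0.448) at E16.5.

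The libraries differ in ways that touch these results. Library totals ran from 14318147 to 24719047 counts. The targeted gene Ash2l was at 46.9 to 60.0 CPM in E14.5 cKO and 118 to 143 CPM in E14.5 WT libraries, and at 54.3 to 60.6 CPM in E16.5 cKO and 129 to 135 CPM in E16.5 WT libraries, so no label goes against it. By Xist and Y-linked counts all 3 E14.5 cKO libraries were female and all 3 E14.5 WT libraries male, so that sex and genotype cannot be told apart within that age. At E16.5 cKO C and WT A were female and the other 4 male. The letters A, B and C follow a number in the library titles, from low to high within an age. The labels do not say that libraries came from separate embryos, so each p-value rests on a spread that may be partly technical. Marker lists set some libraries apart. At E14.5 the summed level of 8 meningeal genes was 345 CPM in cKO A against 21.1 and 46.3 in cKO B and C and 12.7 to 42.0 in WT, and that of 10 ventral telencephalon genes was 357 CPM in WT B against 63.5 to 118 in cKO and 103 and 165 in WT A and C. The same cKO A library had the highest sums at E14.5 for endothelium and pericytes (210 CPM, against 95.6 to 150 in the other 5) and red blood cells (643 CPM, against 149 to 314), and the lowest for pan-neuronal genes (2338 CPM, against 3631 to 5443). Choroid plexus genes summed to 479 CPM in E14.5 WT A and to 621 CPM in E16.5 WT C, against 8.8 to 60.6 CPM in the other 10 libraries. Defining markers of the cortex were present, with 10 of 10 pan-neuronal and 10 of 10 apical progenitor markers over the filter. At E16.5 pan-neuronal markers summed to 4115 to 4646 CPM in cKO and 5642 to 5929 CPM in WT libraries, with 7 of 10 called lower. Apical progenitor markers summed to 1489 to 1973 CPM in E16.5 cKO and 1325 to 1666 CPM in E16.5 WT libraries, with 3 of 10 called higher (median log2 fold change 0.30), and 1 was called higher at E14.5. Their part in the results below was not tested. In bulk tissue fewer cells of a type and less RNA per cell cannot be told apart.

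The first comparison asks which opposite-strand transcripts change with loss of Ash2l at E16.5. Kank4os and Kirrel3os rose, and Pcsk2os1 fell, while no call was made for Kank4, Kirrel3 and Pcsk2, the genes that they face. For Kirrel3 that rests on 1 library, cKO A, without which it was called lower. No other member was called in the main fit, which used no pairing by the number in the titles. More members were called with that number as a block, as given near the end. By the quasi-likelihood test of edgeR, with p-values adjusted by Benjamini-Hochberg across the 15542 genes, 3 of 56 members passed 0.05 (2 higher, 1 lower), or 5.36%, against 15.2% of all genes tested (5.82% higher and 9.37% lower). The members' share lay below that of all genes. By level, 1 of 31 members under 2 CPM was called, against 9.24% of all genes at that level, 2 of 15 between 2 and 10 CPM, against 16.8%, and 0 of 10 over 10 CPM, against 16.4%. The median log2 fold change over the 56 was 0.07, against 0.02 over all genes tested, with 32 positive and 24 negative values. Of the 56, 9 passed the level filter in cKO groups alone and 2 in WT groups alone, so these summaries lean on the filter.

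Kank4os (Entrez 399570) is a noncoding RNA of 3 exons that lies inside Kank4 on chromosome 4, from 98793768 to 98799037 on the plus strand of mm10. Its partner Kank4 encodes an ankyrin repeat protein of the cell cortex. Kank4os had 2.34, 1.76 and 2.25 CPM in E16.5 cKO A, B and C, against 0.106, 0.0581 and 0.154 CPM in WT A, B and C. Every cKO library stood far above every WT library, and the only female cKO library and the only female WT library lay within their groups. In edgeR its log2 fold change came to 4.20 (SE 0.42, adjusted p = 0.00174). The WT value rests on 1 to 3 counts per library: the summed counts were 112 in cKO and 6 in WT, a ratio of 19.5 after scaling, with an exact 95% interval of 8.67 to 54.2 that covers counting error only. Kank4os passed the level filter in the cKO groups alone, so a difference was built into its being tested. With no level filter the log2 fold change was 4.21 (adjusted p = 0.000357). At E14.5 Kank4os had 1.29, 1.46 and 1.27 CPM in cKO A, B and C, against 0.450, 0.379 and 0.0923 CPM in WT A, B and C. The groups were again apart, on 76 counts in cKO and 17 in WT, but the change of 2.14 (SE 0.51) missed the threshold (adjusted p = 0.0813). Kank4 had 2.92, 2.95 and 2.84 CPM in E16.5 cKO A, B and C, against 2.18, 2.73 and 3.95 CPM in WT A, B and C, a log2 fold change of -0.03 (SE 0.26, adjusted p = 0.952). In E14.5 cKO A, the library with the high meningeal markers, Kank4 was at 6.03 CPM, against 1.67 and 2.42 CPM in cKO B and C and 2.60, 3.03 and 1.71 CPM in WT A, B and C. Kank4os did not stand out in that library. Per kilobase, Kank4os was above Kank4 in every E16.5 cKO library and well below it in every WT library, with a mean log2 ratio of 0.54 ± 0.24 in cKO and -3.49 ± 0.47 in WT (SD, n = 3 each). Its annotated start lies in the first of the windows printed above.

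Kirrel3os (Entrez 442804), a noncoding RNA of 4 exons, lies inside Kirrel3 on chromosome 9, from 34918233 to 34929509 on the minus strand, 440778 bases from the start of its partner. Kirrel3 encodes an immunoglobulin-family adhesion molecule of synapses. The level of Kirrel3os was 5.69, 4.61 and 4.09 CPM in E16.5 cKO A, B and C, against 1.43, 1.39 and 0.718 CPM in WT A, B and C. At E14.5 it was 2.10, 3.69 and 2.42 CPM in cKO A, B and C, against 0.850, 1.07 and 0.969 CPM in WT A, B and C. At both ages the lowest cKO library lay above the highest WT library. The log2 fold change was 2.02 (SE 0.30, adjusted p = 0.00493) at E16.5 and 1.5 (SE 0.31, adjusted p = 0.0612) at E14.5. Kirrel3 itself varied widely, at 97.8, 45.2 and 48.7 CPM in E16.5 cKO A, B and C, against 71.9, 65.8 and 56.6 CPM in WT A, B and C. Its groups overlapped, with a log2 fold change of -0.03 (SE 0.27, adjusted p = 0.965). Without E16.5 cKO A, the highest library, Kirrel3 was called lower (-0.47, adjusted p = 0.0176), while Kirrel3os stayed called higher (1.88, adjusted p = 0.00530). At E14.5 Kirrel3 had 11, 49.0 and 31.1 CPM in cKO A, B and C, against 29.2, 54.0 and 36.7 CPM in WT A, B and C, and the groups overlapped again. The log2 ratio of Kirrel3os to Kirrel3 per kilobase was -3.28 ± 0.41 in E16.5 cKO and -5.43 ± 0.39 in E16.5 WT (SD, n = 3 each).

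Pcsk2os1 (Entrez 378776) is a noncoding RNA on chromosome 2, from 143535476 to 143547837 on the minus strand, whose first 1705 bases lie within Pcsk2. Pcsk2 encodes a convertase that cleaves neuropeptide and hormone precursors. Pcsk2os1 had 2.07, 1.66 and 1.12 CPM in E16.5 cKO A, B and C, against 4.09, 3.66 and 3.39 CPM in WT A, B and C. At E14.5 it had 0.431, 1.60 and 0.657 CPM in cKO A, B and C, against 2.45, 2.47 and 2.58 CPM in WT A, B and C. The groups did not overlap at either age. The log2 fold change was -1.19 (SE 0.26, adjusted p = 0.0214) at E16.5 and -1.52 (SE 0.45, adjusted p = 0.130) at E14.5. The E16.5 call was lost when cKO B, WT A or WT B was left out (adjusted p = 0.0817, 0.0757 and 0.0772) and in the fit of 12 libraries without and with embryo sex as a term (0.0536 and 0.0720), with log2 fold changes between -1.21 and -1.12. Pcsk2 had 25.6, 24.7 and 16.6 CPM in E16.5 cKO A, B and C, against 27.7, 23.6 and 18.3 CPM in WT A, B and C, a log2 fold change of -0.06 (SE 0.20, adjusted p = 0.872). At E14.5 Pcsk2 had 10.2, 16 and 12.2 CPM in cKO A, B and C, against 13.0, 14 and 16.4 CPM in WT A, B and C. In WT libraries the log2 fold change of E16.5 over E14.5 was 0.57 (SE 0.35, adjusted p = 0.308) for Pcsk2os1 and 0.68 (SE 0.21, adjusted p = 0.0789) for Pcsk2, neither past the threshold. Of the markers, 7 of 10 pan-neuronal ones were lower and 3 of 10 apical progenitor ones higher in cKO at E16.5, and their part in this result was not tested.

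**Figure D3:**
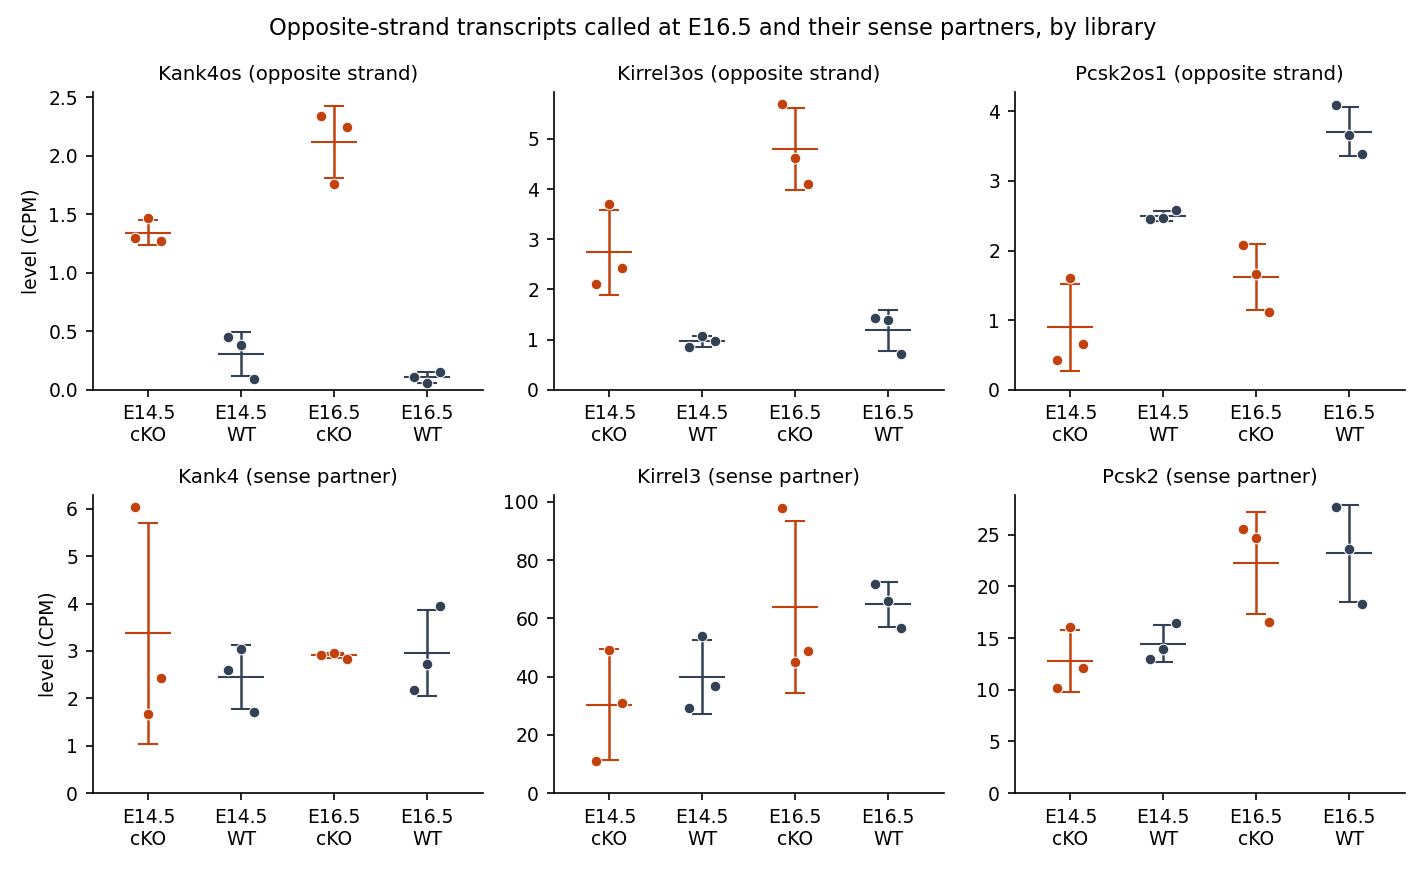
Levels (CPM, linear axes from 0) of Kank4os, Kirrel3os and Pcsk2os1 above and of their sense partners below, with 1 point per library, a line at the mean and bars of 1 SD (n = 3). In the upper row the cKO and WT points are apart at both ages, and in the lower row they overlap in every panel.

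The authors' deposited table for E16.5, made with DESeq2 and written as WT over knockout, gives log2 ratios of -1.89 for Kank4os (adjusted p = 1.21e-09), -1.45 for Kirrel3os (3.07e-07) and 0.89 for Pcsk2os1 (0.00287), so that the directions match those above. In the authors' deposited table for E14.5 the values were -0.95 (0.0182), -0.99 (0.00647) and 0.84 (0.0419), all past 0.05. These deposited log2 ratios are smaller than the ones fitted here, and whether they were shrunk is not stated by the labels or headers. At 0.05 the authors' deposited tables call 7.91% of 14958 genes at E14.5 and 17.0% of 16190 at E16.5, and 2 further members, Cep83os at E14.5 (-0.49, adjusted p = 0.0473) and Prox2os at E16.5 (-0.40, adjusted p = 0.0438).

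Just short of the threshold at E16.5 were 6 members with an edgeR adjusted p between 0.05 and 0.1. Prox2os had a log2 fold change of 0.44 (SE 0.13, adjusted p = 0.0509), Cep83os 0.43 (SE 0.14, adjusted p = 0.0685) and Tnfsf13os 1.63 (SE 0.53, adjusted p = 0.0755). Tnfsf13os passed the level filter in cKO groups alone, so a difference was built into its being tested. Man2c1os had -0.94 (adjusted p = 0.0766), Lppos -1.08 (0.0833) and Map2k3os 0.91 (0.0910). In all 6 the cKO and WT libraries of E16.5 did not overlap, against 37.0% of all genes tested. These 6 were picked by their p-values from the same libraries, so this adds no support. Precision sets a limit here: the median SE of the log2 fold change was 0.31 over the 56 members and 0.14 over all genes tested. In simulated counts a 2-fold change was recovered in 69.4% of changed genes at E16.5. The changed genes were drawn from all genes tested, whose median level was 22.1 CPM, against 1.40 CPM for the members. The share therefore does not give the recovery for genes at the level of the members.

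The second comparison sets the sense partners beside the transcripts that face them. Of 132 partners tested 24 passed at E16.5 (6 higher, 18 lower), or 18.2% against the 15.2% of all genes, and of the 54 tested partners of tested members 6 passed (2 higher, 4 lower), or 11.1%. Leaving out 1 library moved the 24 to 37 without cKO A, to 15 without cKO B and to 13 without WT B. The share of all genes called moved to 18.3%, 6.41% and 6.32% in the same fits. In none of the 6 pairs was the opposite-strand transcript called. Lpp, Dnm3, Chd3 and Kcnd3 fell, and Map2k3 and Zfp335 rose. The log2 fold change of the opposite-strand transcript had the sign of its partner in each of the 6, against 59.3% of the 54 pairs tested on both sides. For Kcnd3os the value ran from -0.67 to 0.01 and for Chd3os from -0.46 to -0.03 with 1 library left out, and Dnm3os rests on a few counts.

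Lpp encodes a LIM protein of focal adhesions, and Lppos starts 305 bases inside it in the other direction. Lpp had 39.4, 45.7 and 54.5 CPM in E16.5 cKO A, B and C, against 73.6, 73.1 and 79.5 CPM in WT A, B and C (log2 fold change -0.70, SE 0.12, adjusted p = 0.00729). Lppos had 0.691, 1.04 and 0.528 CPM in E16.5 cKO A, B and C, against 1.75, 1.16 and 1.90 CPM in WT A, B and C. Both were lower in every cKO library than in any WT library. At E14.5 Lpp had 70.8, 51.9 and 56.9 CPM in cKO A, B and C, against 86.5, 72.9 and 81.1 CPM in WT A, B and C (adjusted p = 0.177). Lppos then had 1.35, 0.837 and 1.03 CPM in cKO A, B and C, against 1.7, 1.83 and 1.62 CPM in WT A, B and C (adjusted p = 0.279). The groups were apart for both, without a call.

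Map2k3 encodes a kinase that activates p38, and its start lies 190 bases from that of Map2k3os in the window printed above. Map2k3 had 20.0, 17.4 and 15.8 CPM in E16.5 cKO A, B and C, against 11.9, 13.0 and 11.1 CPM in WT A, B and C (log2 fold change 0.56, SE 0.13, adjusted p = 0.0242). Map2k3os had 1.91, 1.1 and 1.45 CPM in E16.5 cKO A, B and C, against 0.796, 0.813 and 0.769 CPM in WT A, B and C. The groups were apart for both, with Map2k3os the more variable in cKO. At E14.5 Map2k3 had 20.7, 15.8 and 20.9 CPM in cKO A, B and C, against 15.3, 12.6 and 13.3 CPM in WT A, B and C, while Map2k3os had 1.08, 1.19 and 1.11 CPM in cKO A, B and C, against 1.25, 0.696 and 1.25 CPM in WT A, B and C. Only Map2k3 was apart at that age, without a call (adjusted p = 0.154). The E16.5 call of Map2k3 was lost without cKO B, WT A, WT B or WT C (adjusted p = 0.0821, 0.0778, 0.0635 and 0.0787).

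Zfp335, a zinc finger gene whose product associates with histone H3 lysine 4 methyltransferase complexes and is needed by neural progenitors, had 67.2, 63.5 and 59.2 CPM in E16.5 cKO A, B and C, against 50.1, 42.4 and 42.0 CPM in WT A, B and C (log2 fold change 0.49, SE 0.09, adjusted p = 0.0125). Zfp335os had 4.84, 4.56 and 3.70 CPM in E16.5 cKO A, B and C, against 3.45, 3.14 and 2.51 CPM in WT A, B and C (0.52, SE 0.21, adjusted p = 0.132). The pair overlaps by 391 bases at the heads, and both members were apart. At E14.5 Zfp335 had 77.1, 64.6 and 82.8 CPM in cKO A, B and C, against 65.6, 48.8 and 55.1 CPM in WT A, B and C, and Zfp335os had 5.87, 4.18 and 3.69 CPM in cKO A, B and C, against 3.90, 2.53 and 3.55 CPM in WT A, B and C. Both overlapped between groups at that age. The E16.5 call of Zfp335 was lost without cKO B or WT B (adjusted p = 0.0582 and 0.0647).

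Chd3 encodes a helicase of the NuRD complex, and Chd3os, listed now as Rnf227, lies tail to tail with it. Chd3 had 695, 660 and 681 CPM in E16.5 cKO A, B and C, against 1063, 937 and 902 CPM in WT A, B and C (log2 fold change -0.52, SE 0.08, adjusted p = 0.00495). Chd3os had 28.6, 20.8 and 15.7 CPM in E16.5 cKO A, B and C, against 27.9, 24.7 and 22.9 CPM in WT A, B and C (-0.22, SE 0.20, adjusted p = 0.504). Chd3 was apart between the groups and Chd3os was not. At E14.5 Chd3 had 547, 567 and 693 CPM in cKO A, B and C, against 862, 973 and 782 CPM in WT A, B and C (adjusted p = 0.0922), and Chd3os had 11.5, 14.3 and 13.2 CPM in cKO A, B and C, against 13.3, 22.1 and 17.6 CPM in WT A, B and C. The same division held, with Chd3 apart and Chd3os overlapping.

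Kcnd3, which encodes the potassium channel subunit Kv4.3, was the partner of a tested member that was called at both ages. It had 50.5, 44.7 and 50.3 CPM in E16.5 cKO A, B and C, against 75.0, 76.3 and 68.9 CPM in WT A, B and C (log2 fold change -0.61, SE 0.08, adjusted p = 0.00340). At E14.5 it had 26.2, 38.3 and 36.5 CPM in cKO A, B and C, against 59.9, 77.1 and 65.7 CPM in WT A, B and C (-1.0, SE 0.16, adjusted p = 0.0371). The E14.5 call was lost on leaving out cKO B, cKO C, WT A, WT B or WT C, with adjusted p between 0.0636 and 0.166. Kcnd3os had 1.75, 0.984 and 0.792 CPM in E16.5 cKO A, B and C, against 1.54, 1.92 and 0.821 CPM in WT A, B and C. At E14.5 it had 0.807, 0.767 and 0.616 CPM in cKO A, B and C, against 1.10, 1.07 and 1.80 CPM in WT A, B and C. Kcnd3os was thus apart at E14.5 without a call (-0.86, adjusted p = 0.235) and overlapped at E16.5.

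Dnm3 encodes dynamin 3, a neuronal membrane GTPase, and Dnm3os, inside it, is the host transcript of a microRNA cluster. Dnm3 had 63.4, 50.6 and 51.9 CPM in E16.5 cKO A, B and C, against 105, 85.7 and 80.3 CPM in WT A, B and C (log2 fold change -0.72, SE 0.13, adjusted p = 0.00913). This call was not kept in the fit of all 12 libraries (adjusted p = 0.190). Dnm3os had 0.0532, 0.0518 and 0.0660 CPM in E16.5 cKO A, B and C, against 0.0531, 0.232 and 0.154 CPM in WT A, B and C, all at a few counts. It passed the level filter through a single library: at E14.5 it had 2.05 CPM in cKO A, the library with the high meningeal, vascular and red blood cell markers and the fewest neuronal ones, and 0.139 and 0.205 CPM in cKO B and C, against 0.150, 0 and 0.415 CPM in WT A, B and C. The E14.5 log2 fold change of 1.98 was -0.17 without cKO A. Dnm3 at E14.5 had 14.53, 42.1 and 35.6 CPM in cKO A, B and C, against 33.7, 72.6 and 51.0 CPM in WT A, B and C. The groups overlapped, with cKO A the lowest.

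**Figure D4:**
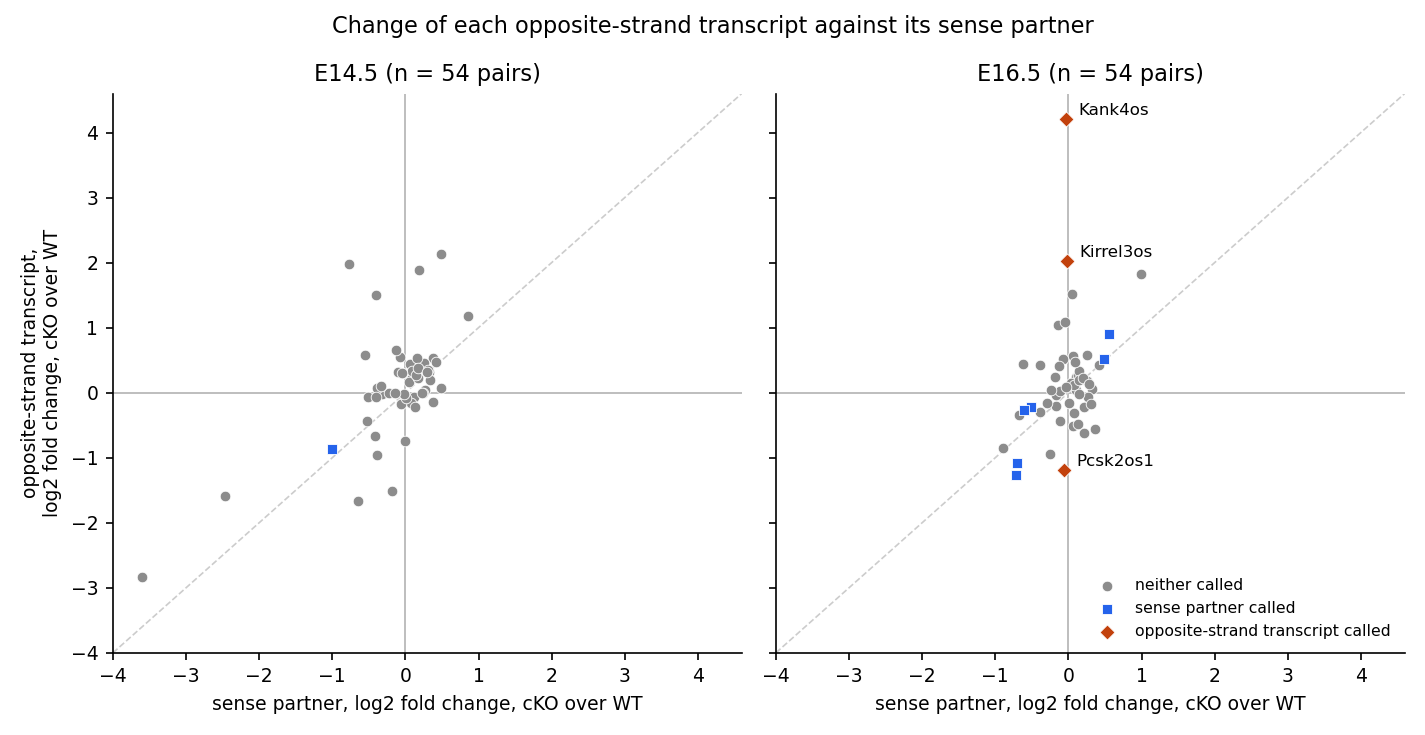
Log2 fold change of the opposite-strand transcript (cKO over WT) against that of its sense partner for 54 pairs tested on both sides, at E14.5 (left) and E16.5 (right), with calls marked at an adjusted p of 0.05. In the E16.5 panel the 3 called opposite-strand transcripts sit where the partner changes by 0.06 or less (for Kirrel3, -0.03, and -0.47 without cKO A), and all 6 called partners there have opposite-strand transcripts whose value has the same sign.

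Across the 54 pairs tested on both sides, the 2 members of a pair changed with the same sign in 32 pairs (59.3%) at E16.5 and in 36 (66.7%) at E14.5. Other divergent pairs in the same table, 1195 pairs of genes on opposite strands with starts within 1000 bases, did so in 66.1% at E16.5 and 67.2% at E14.5. Pearson's r of the log2 fold changes across pairs was 0.34 (Spearman's rho 0.31) at E16.5 over the 54 pairs, against 0.33 (0.27) over the other divergent pairs, and 0.62 (0.43) against 0.37 (0.27) at E14.5. These are descriptions across genes, which share libraries and are not independent. The E14.5 value for the 54 pairs includes Six3os1 and Six3, at -2.83 and -3.60, and Dlx6os2 and Dlx6, at -1.59 and -2.47. Six3os1 had 14.7 CPM in WT B, against 4.20 and 3.88 CPM in WT A and C, and 0.592, 0.697 and 1.77 CPM in cKO A, B and C. The same library had the highest ventral telencephalon markers, and the part of these in the values was not tested. At E16.5 Six3os1 overlapped between the groups, from 0.990 to 3.26 CPM in cKO and from 2.09 to 7.39 CPM in WT libraries.

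Expressed as a ratio per kilobase, the 3 cKO ratios all lay above the 3 WT ratios in 8 pairs and below them in 4 at E16.5, together 21.4% of 56, and in 7 and 2 pairs at E14.5, together 16.1%. In the other divergent pairs the ratio of the genes was apart in 26.8% at E16.5 and 19.9% at E14.5, so the members' shares were not above these. The median difference over the 56 pairs was 0.10 on the log2 scale at E16.5 and 0.16 at E14.5, so there was no shift of the whole group of the size seen in Kank4os (4.04 at E16.5) or Kirrel3os (2.15). Beside these, the ratio was apart at both ages for Pcsk2os1 (-1.16 at E16.5, -1.47 at E14.5) and for Epb41l4aos (0.86 and 1.17). Prox2os, which runs at far more than its partner Prox2, had a log2 ratio of 5.37 ± 0.15 in E16.5 cKO and 4.30 ± 0.14 in E16.5 WT (SD, n = 3 each), and at E14.5 its ratios overlapped. Ratios at a few counts, as for Stamos and Spag17os, depend on the added 0.5 counts. The counts of pairs by side also lean on the level filter, which 9 members passed in cKO groups alone and 2 in WT groups alone.

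At E14.5 no opposite-strand transcript was called by edgeR in the main fit, which used no pairing by the number in the titles. The count was 0 of 56 (background 1.93% of all genes tested, 0.328% higher and 1.6% lower), with 14 members at an unadjusted p under 0.05, against 20.0% of all genes. DESeq2 on the same counts called 8.0% of all genes and 5 of the 56 members: Kank4os, Kirrel3os and Cep83os higher, and Pcsk2os1 and Six3os1 lower. A 2-fold change was recovered in 53.8% of changed genes in simulated counts for this age, again drawn from all genes tested and not at the level of the members. Of 132 partners 4 passed (3.03%): Acss2 rose, and Kcnd3, Tmem150c and Tspan2 fell, all 3 of these by about the same amount (log2 fold changes of -1.0, -0.96 and -1.06). All 4 calls were lost without cKO B, cKO C or any 1 WT library. Sex ran with genotype at this age, as given above. The median log2 fold change of the 56 members was 0.17, against 0.02 over all genes tested, with 34 positive and 22 negative values. This summary too leans on the level filter, which 9 members passed in cKO groups alone and 2 in WT groups alone.

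Groups that did not overlap were about as common among members as among all genes. At E14.5 the 3 cKO libraries lay all above or all below the 3 WT libraries for 17 of 56 members (30.4%; 12 above, 5 below), against 26.5% of all genes tested (11.9% above, 14.6% below), and at E16.5 again for 17 (13 above, 4 below), against 37.0% (19.1% above, 17.9% below). At both ages and on the same side they did so for 8 members. Cep83os, Kank4os, Kirrel3os, Prox2os, Slc7a6os and Tnfsf13os were above in all 6 cKO libraries (10.7%, against 7.64% of all genes), and Lppos and Pcsk2os1 were below (3.57%, against 9.79%). Kank4os and Tnfsf13os passed the level filter in cKO groups alone. Of the 56 members 9 did so, against 2 that passed in WT groups alone, so the counts above WT lean on the filter. Of the 2 comparisons, which share no library, 44 of 56 members had the same sign (78.6%), against 81.4% of all genes. Cep83os, head to head with the centrosomal gene Cep83, had 12.3, 10.4 and 10.8 CPM in E14.5 cKO A, B and C, against 7.85, 7.14 and 8.17 CPM in WT A, B and C. At E16.5 it had 11.1, 13.6 and 12.7 CPM in cKO A, B and C, against 8.44, 9.12 and 10.1 CPM in WT A, B and C. These 8 were picked for this pattern, so their values are a description.

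**Figure D5:**
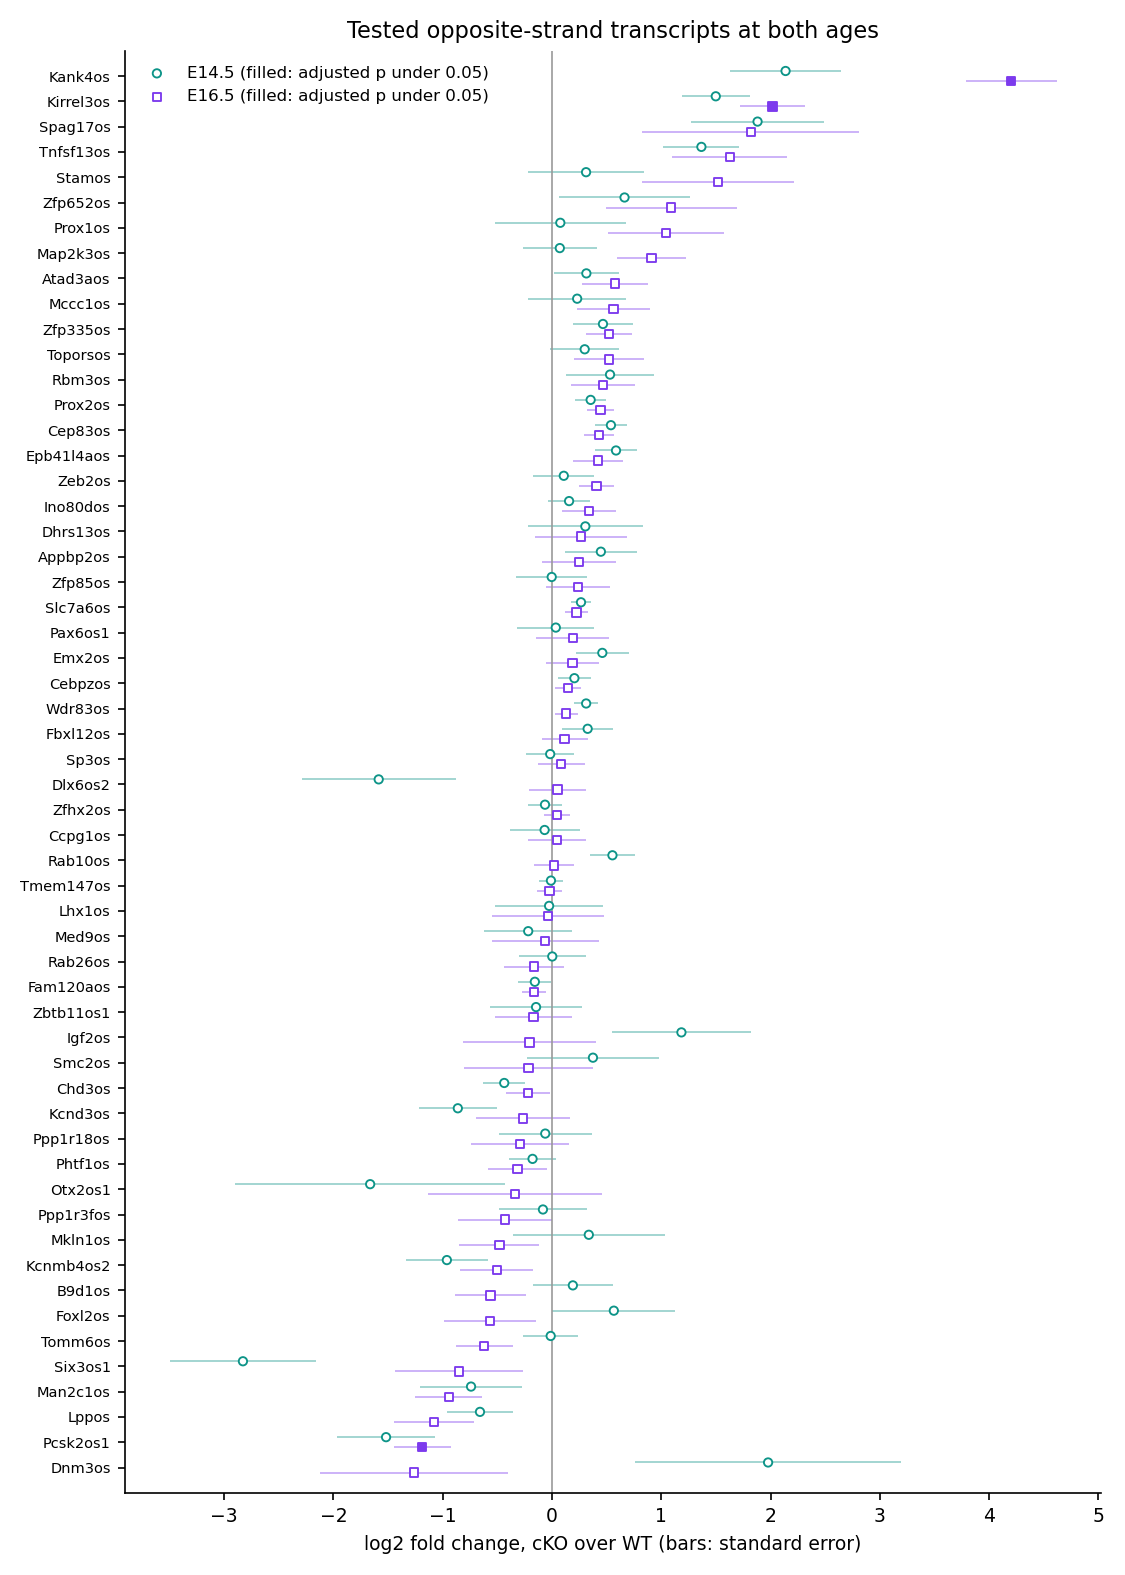
Log2 fold change (cKO over WT) of the 56 tested opposite-strand transcripts at E14.5 (circles) and E16.5 (squares), ordered by the E16.5 value, with bars of 1 standard error and filled marks at an adjusted p under 0.05. Kank4os and Kirrel3os lead the list at E16.5 and lie above 0 at both ages, Pcsk2os1 lies below 0 at both, and most of the rest lie within 0.5 of 0.

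The change of the cKO effect between the ages was tested in 1 fit of 12 libraries. No member, partner or other gene passed (0.0% of 15542 genes, edgeR), with 1 member, 3 partners and 344 genes at an unadjusted p under 0.05, and DESeq2 called none either. The effect on Kank4os was larger at E16.5 by 2.08 (SE 0.70, unadjusted p = 0.0117, adjusted p = 1), so a call at E16.5 alone does not show that the effect differed between the ages. In simulated counts this test recovered a 2-fold difference in 26.8% of changed genes, again drawn from all genes tested and not at the level of the members.

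Between the ages in WT, E16.5 over E14.5, no member was called (0 of 56 by edgeR, against 2.1% of all genes, 0.746% higher and 1.35% lower). An unadjusted p under 0.05 was reached by 6 of the 56, against 27.5% of all genes. Of 132 partners 3 were called. Tomm6, a subunit of the mitochondrial import pore, fell by 0.62 (SE 0.08, adjusted p = 0.0130), at 27.7 ± 0.57 CPM in E16.5 WT and 42.6 ± 1.58 CPM in E14.5 WT (SD, n = 3 each). Tomm6os moved the other way without a call, at 2.86 ± 0.77 CPM in E16.5 WT and 1.87 ± 0.25 CPM in E14.5 WT (0.61, SE 0.24, adjusted p = 0.130). The other 2 were Tmem150c, higher at E16.5 (0.63, adjusted p = 0.0304), and Akna, which encodes a centrosomal protein of neural progenitors, lower at E16.5 (-0.90, adjusted p = 0.0307). The 3 calls became 0 without E14.5 WT C, E16.5 WT A or E16.5 WT B, 1 without E14.5 WT A or E16.5 cKO B, and 6 to 21 without E14.5 cKO A, E14.5 cKO B, E14.5 WT B or E16.5 cKO A. The ages were deposited as separate tables, so age cannot be told apart from anything else that differed between them.

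Partners of members outside the level filter made up most of the called partners at E16.5: 18 of 78 passed (4 higher, 14 lower), or 23.1%, against 15.2% of all genes tested (5.82% higher, 9.37% lower). Over all partners the 24 calls ran from 13 to 37 with 1 library left out, as given above. The following were named after their values were seen. Arhgap15, which encodes a GTPase-activating protein for Rac, had 20.3, 12.4 and 9.18 CPM in E16.5 cKO A, B and C, against 1.43, 1.45 and 0.872 CPM in WT A, B and C (log2 fold change 3.48, SE 0.35, adjusted p = 0.00180). Arhgap15os had 7 counts in the E16.5 cKO libraries and 0 in the WT libraries, and 3 and 0 counts at E14.5, too few for a fold change. Tspan2, a tetraspanin gene, averaged 5.30 ± 0.31 CPM in E16.5 cKO and 12.4 ± 0.51 CPM in E16.5 WT (SD, n = 3 each), with a log2 fold change of -1.23 (SE 0.13, adjusted p = 0.00180), while Tspan2os had 6 counts in each genotype. At E14.5 Tspan2os had 1 count in cKO and 11 in WT libraries, a scaled ratio of 0.0913 (exact 95% interval 0.00212 to 0.628, counting error only). Tmem150c, which encodes a membrane protein linked to mechanically gated currents, averaged 12.6 ± 0.99 CPM in E16.5 cKO and 26.9 ± 2.71 CPM in E16.5 WT (SD, n = 3 each), with a log2 fold change of -1.10 (SE 0.11, adjusted p = 0.00180). Tmem150cos, with 25 counts in cKO and 20 in WT at E16.5, gave a scaled ratio of 1.30 with an exact 95% interval of 0.695 to 2.48, an interval that covers counting error only. Peg3 was higher by 0.57 (SE 0.08, adjusted p = 0.00453), with no count of Peg3os in any library.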

How the data were processed

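The deposited count tables hold raw counts of fragments per gene on the reverse strand (setting 2) over mm10 exons, made by the authors with featureCounts 1.5.2 (25 bases of overlap or more), per the file headers of both count tables, after alignment with STAR 2.5.2b, per the submitters' processing notes. The authors also deposited, per age, DESeq2 1.14.1 output (log2 ratio of WT over knockout, adjusted p-values), per the same notes. The 12 normalised columns there were not used. Counts of genes with at least 0.5 mean CPM in any group (15542 of 27179) went into edgeR 4.0.16 (R 4.3.3): TMM scaling, robust quasi-likelihood fit, Benjamini-Hochberg adjustment over all genes, threshold 0.05. Each age was fitted alone with genotype as the only term, and the contrasts between ages used 1 fit of 12 libraries. Levels are CPM on TMM-scaled totals, and SE is the log2 fold change divided by the root of F. Ratios add 0.5 counts and carry no test. Recovery was tested on simulated counts for the same 15542 genes. Pairs with a call on either side, and then the 5 highest other members, are described with their values. Members and lists were chosen with earlier results of these data known. Alternatives were other scalings, DESeq2 1.42.0, other level filters, each library left out, a block by title number, and 12-library fits with and without sex. RefSeq tables of GRCm38.p6 gave gene types and sequences.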

Additional observations from a re-analysis of the deposited data

How the results depend on the processing

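Kank4os and Kirrel3os stayed called higher at E16.5 under each alternative, with log2 fold changes of 3.94 to 4.53 and 1.74 to 2.18 when 1 library was left out, and no value of the 28 genes of the described pairs turned its sign past the threshold. The count of members called at E16.5, 3, was 6 in the fit of all 12 libraries, which called 12.4% of all genes. It was 2 to 4 with 1 library left out, where 6.32% to 18.3% of all genes were called. At E14.5 it was 0, against 5 by DESeq2 and 5 in the fit of 12 libraries, which called 8.0% and 8.55% of all genes. It was 0 with any library left out, where 0.0322% to 2.13% of all genes were called. Partners called at E14.5 (4) numbered 17 by DESeq2, 14 in the fit of 12 libraries and 2 with embryo sex as a term. The fit with sex called 0.811% of all genes. With 1 library left out the partners called at E14.5 numbered 0 to 4. At E16.5 (24) they numbered 13 to 37 with 1 library left out. The most came without cKO A, where 18.3% of all genes were called, and the fewest without WT B, with 6.32%. Partners called between ages in WT (3) numbered 20 by DESeq2, which called 12.8% of all genes, and 0 with sex as a term, which called 0.0643%. They numbered 0 to 21 with 1 library left out, where 0.00643% to 14.2% of all genes were called. The median ratio difference ran from 0.09 to 0.22 at E14.5 and from 0.03 to 0.16 at E16.5 with 1 library left out. In these alternatives the cause was not tested, save that leaving out a library lowers the number of samples.

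The title numbers are shared by 1 cKO and 1 WT library of each age. Deviations of same-numbered libraries correlated by 0.24, 0.28 and -0.01 at E14.5 and by 0.23, 0.17 and 0.08 at E16.5 over 15542 genes. Those of differently numbered libraries ran from -0.28 to 0.09 at E14.5 and from -0.21 to 0.08 at E16.5. At each age the values for A and B lay above all of these, and the value for C did not. The main fit used no pairing, since the C libraries did not show it. Whether same-numbered libraries share an effect was not tested. With the title number as a replicate block the members called were 3 at E14.5 and 6 at E16.5, and the partners 19 and 50 of 132. The block called 8.53% and 31.0% of all genes, against 1.93% and 15.2% without it, so the counts of calls depend on this choice. For the age difference the block called no member or partner, and 1 gene of all where the fit without it called 0. It could not be fitted for the WT ages. Depth sets the precision: 31 of the 56 members lie under 2 CPM, where the median SE at E16.5 was 0.42, against 0.12 for the 10 over 10 CPM, of which 0 were called.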

Other observations

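Antisense genes named by the other convention, with the symbol of the partner followed by as, gave 2 pairs in the same tables. Dlx1as, which overlaps the tail of the interneuron homeobox gene Dlx1, averaged 24.3 CPM in E14.5 cKO and 51.5 CPM in E14.5 WT libraries, and 60.5 CPM in E16.5 cKO and 70.2 CPM in E16.5 WT libraries. Znrd1as, head to head with Znrd1, averaged 1.34 CPM in E14.5 cKO and 1.38 CPM in E14.5 WT libraries, and 1.09 CPM in E16.5 cKO and 1.21 CPM in E16.5 WT libraries. Neither was called at either age (edgeR adjusted p = 0.323 and 0.521 for Dlx1as, 0.945 and 0.860 for Znrd1as). The symbol rule for this list also matched Vipas39 and Hras, which lie on other chromosomes than the genes their symbols would point to and are no antisense genes, so 2 of its 4 matches are no pairs.

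Calls can be set beside the distance between the starts of a pair. Of the 31 tested members whose start lies within 1000 bases of their partner's start none was called at E16.5 (edgeR), and of the 25 that start farther away 3 were. An unadjusted p under 0.05 was reached by 6 of the 31 and by 6 of the 25, against 31.1% of all genes tested. Of all genes tested 15.2% were called, and of the genes of other divergent pairs 10.6%. The difference between these shares was not tested. Among the 3 called members Pcsk2os1 starts 1704 bases from the start of Pcsk2, with overlapping heads, so the split of the calls depends on the cut at 1000 bases.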
